A study of Homo sapiens with 4 samples.

Results

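The genes described here are 39 genes of the heat shock response and the unfolded protein response (UPR), followed in 2 sublines of THP-1, a human monoblastoid leukemia cell line, with and without bacteria. Each gene was read from the brightest, by mean signal over all arrays, of the probe sets annotated to it alone, and 36 of the 39 genes were found in this way among 19775 genes with such a probe set. HSPA1A, HSPA1B and HSPA8 have only probe sets listed for several genes, and are described separately. The 36 genes were grouped by role as 10 cytosolic heat shock genes, 3 mitochondrial chaperones, 8 chaperones of the endoplasmic reticulum (ER), 3 genes of ER-associated degradation, 4 UPR sensors and factors, and 8 genes of the integrated stress response.

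Siglec-14/THP-1 expresses Siglec-14, an activating receptor, and Siglec-5/THP-1 expresses Siglec-5, its inhibitory counterpart, and the lines serve as models of monocytes from people with the SIGLEC14 gene and without it. Both lines were kept in serum-free macrophage medium for 6 h, either alone or with nontypeable Haemophilus influenzae (NTHi) strain 2019, killed by heat, at 100 bacteria per cell. The 4 conditions are called Siglec-14,NTHi[−], Siglec-14,NTHi[+], Siglec-5,NTHi[−] and Siglec-5,NTHi[+], and 1 array was made for each from 250 ng of RNA. There are no replicates, so the ratio of a pair of arrays has no error of its own, and a line cannot be told apart from its arrays. In such bulk RNA, more cells carrying a transcript and more transcript per cell cannot be told apart either.

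The arrays were of similar quality. The median signal was 15.1 to 16.5, the GAPDH ratio of 3′ to 5′ probe sets was 0.974 to 1.03, and that of ACTB was 1.19 to 1.21. Of the monocytic markers measured, 6 of 8, namely LYZ, ELANE, MPO, ITGAM, SPI1 and CSF1R, exceeded the median of all signals (16.02) on every array, whereas CD14 and FCGR1A exceeded it on none. SIGLEC14 was not matched to a probe set of its own, and the SIGLEC5 probe set gave 21.3, 19.5, 4.13 and 21.6 in the order above, so the array signals did not check the line labels. Of 9 markers of other cell types, 6 exceeded the median on all arrays, and CD3E and MS4A1 exceeded it on none. The summed signal of these 9 was 2825 and 2871 in Siglec-14/THP-1 but 1183 and 991 in Siglec-5/THP-1, mostly through PECAM1, a cell adhesion molecule that monocytes also carry (2307, 2376, 771 and 627). The part of these cell markers in the line differences below was not tested.

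Cells meet unfolded protein with separate programs in separate compartments. In the cytosol, heat shock factor HSF1 is held in check by chaperones and, once free, binds heat shock elements and raises HSP70, HSP90 and their J-domain partners. In the ER lumen, the chaperone HSPA5 (BiP) restrains the sensors ERN1 (IRE1), EIF2AK3 (PERK) and ATF6. IRE1 splices XBP1 mRNA, ATF6 is cleaved to a transcription factor, and both raise ER chaperones and the degradation machinery. PERK phosphorylates eIF2α, which slows translation but favors that of ATF4. ATF4 in turn raises DDIT3 (CHOP), TRIB3, CHAC1 and ASNS, an arm shared with amino acid shortage and called the integrated stress response. In macrophages, Toll-like receptor signaling is known to engage the IRE1 and XBP1 branch.

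Of the 36 genes, 35 were no lower than the median of all signals on any of the 4 arrays, and the exception was CHAC1. Mean signals ran from 27.0 to 11257. Signals of different genes come from different probe sets and are not compared as levels. For every ratio, signals below 16.02 were raised to this floor.

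**Figure D1:**
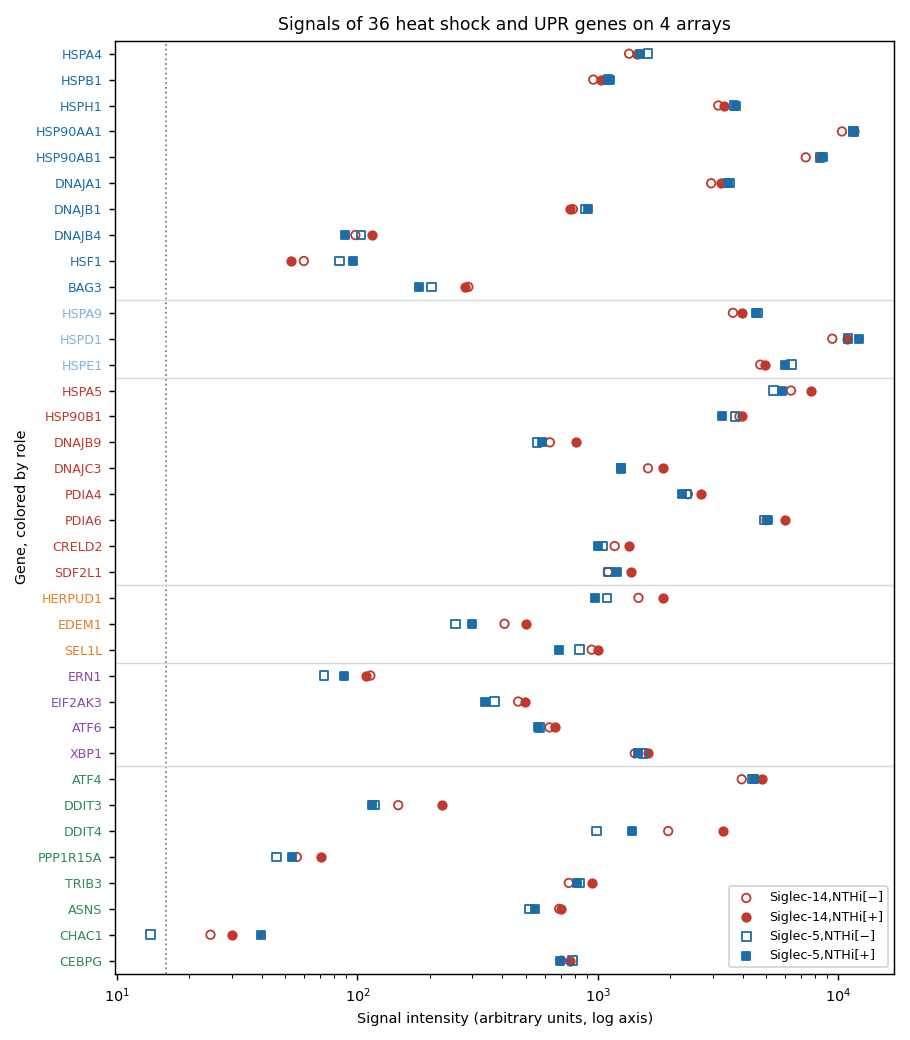
Signal intensity (log axis) of the 36 genes on the 4 arrays, with role given by the color of the gene name and the floor of 16.02 as a dotted line. The 4 points of most genes nearly coincide, and DDIT4, DDIT3, CHAC1, EDEM1, HERPUD1 and HSF1 are spread more widely.

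Few of these genes differed much with NTHi. In Siglec-14/THP-1, no gene differed 2-fold or more with NTHi (of all genes, 1.17% were higher and 0.621% lower). In Siglec-5/THP-1, CHAC1 reached 2-fold upward and no gene downward (of all genes, 0.876% and 0.884%). At 1.5-fold, DDIT3 and DDIT4 were higher in Siglec-14/THP-1, 5.56% of the 36 genes, near the 5.08% of all genes, and CHAC1 alone in Siglec-5/THP-1, where 3.18% of all genes were. The median log2 ratio was 0.18 over the 36 genes and 0.08 over all genes in Siglec-14/THP-1. In Siglec-5/THP-1 it was −0.0032 over the 36 genes and −0.11 over all genes. As deposited, the 36 genes thus lay about as far above the all-gene median in either line, by 0.099 and 0.10. These distances were 0.028 and 0.077 with quantile normalization, and 0.13 and 0.066 with 16 added to each signal and no floor. On both pairs of arrays, 21 of 36 genes (58.3%) were above the all-gene median and 2 (5.56%), BAG3 and HSP90B1, were below it. Among 7856 genes as bright as most of these (mean signal at or above the 75th percentile of all signals), 33.0% were above and 30.5% below on both. In the fit shared by both lines (limma on log2 signals with line and NTHi as terms), only DDIT4 passed as higher, against 0.99% of all genes, and none as lower, against 0.294%. At an unadjusted p under 0.05 the same fit by limma had 2 genes higher, CHAC1 and DDIT4, and 0 lower, where 477 and 460 of 13935 genes were. This fit has 1 residual degree of freedom, which is the difference between the lines in their NTHi ratio. Its variance comes from the trend over signals of all probe sets. Its standard errors (SE) and p-values thus do not measure the spread between repeated cultures. Without that trend, 0 genes of either direction passed, and DDIT4 was the only one at an unadjusted p under 0.05.

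**Figure D2:**
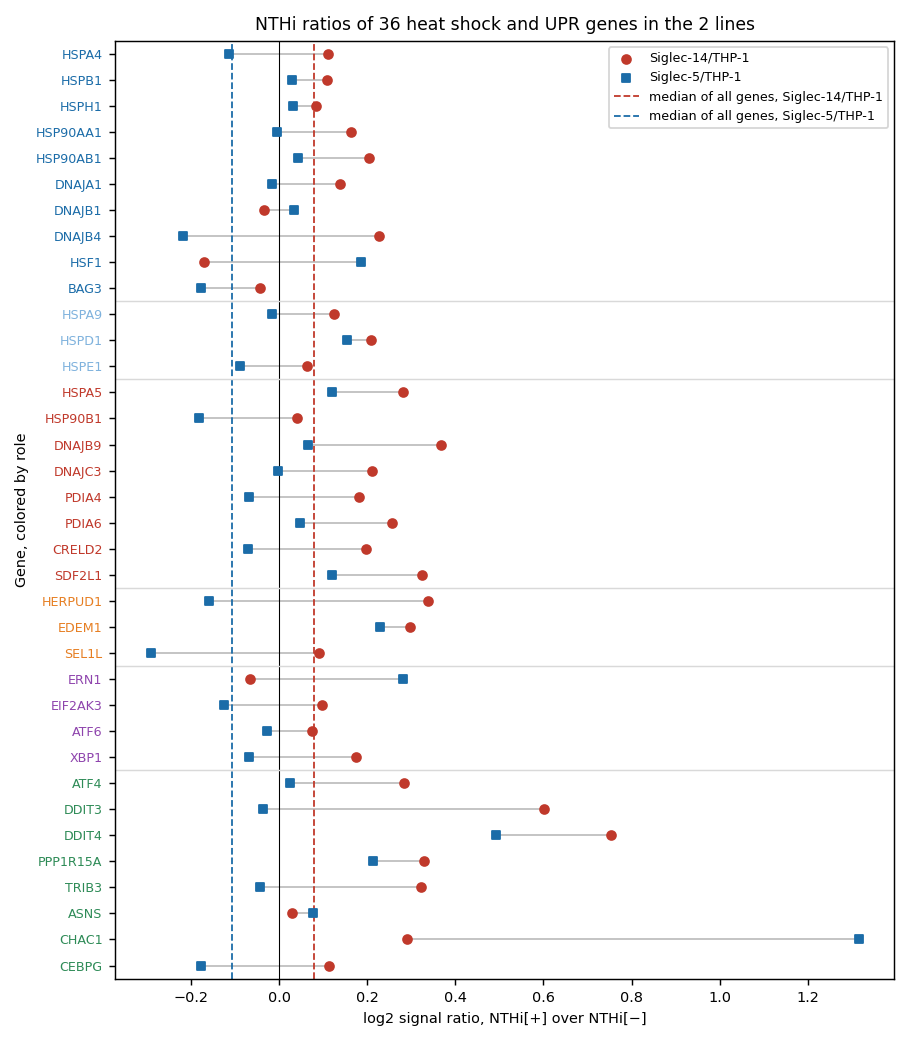
log2 ratio of NTHi[+] to NTHi[−] for the 36 genes in Siglec-14/THP-1 (red circles) and Siglec-5/THP-1 (blue squares), with the all-gene median of each line dashed (0.08 and −0.11). In each line 28 of 36 genes lie to the right of that line's dashed median, and DDIT4 in Siglec-14/THP-1 and CHAC1 in Siglec-5/THP-1 lie furthest to the right.

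The 2 lines differed more, and by compartment. Relative to all genes, the ER chaperones, the 3 degradation genes and the 4 UPR sensors and factors among the 36 gave higher signals in Siglec-14/THP-1, and mitochondrial chaperones and most cytosolic genes lower ones, both without and with NTHi. Further genes of degradation and of UPR sensing outside the 36 had medians near that of all genes without NTHi. The comparisons without and with NTHi use different arrays. Without NTHi, the median log2 ratio of Siglec-14/THP-1 to Siglec-5/THP-1 was −0.12 over all genes. It was −0.20 over the cytosolic genes, −0.34 over the mitochondrial chaperones, 0.11 over the ER chaperones, 0.44 over the degradation genes, 0.23 over the sensors and factors and 0.30 over the integrated stress response. With NTHi, it was 0.06 over all genes and −0.07, −0.20, 0.34, 0.74, 0.27 and 0.29 over the same groups. All 8 ER chaperones, all 3 degradation genes and all 4 sensors and factors were above the all-gene median in both conditions, and all 3 mitochondrial chaperones and 8 of 10 cytosolic genes were below it in both. XBP1 was only just above it without NTHi (−0.11, against −0.12). Bright genes had lower medians than all genes (−0.17 and 0.04), and against these 3 of 10 cytosolic genes were above without and 2 with NTHi. The cytosolic median (−0.20) was close to that of bright genes without NTHi. Of 12043 genes, 36.2% were above and 36.2% below in both, and of the 7856 bright genes 34.97% and 43.6%. The groups were formed with earlier results of these arrays known, so these counts are descriptions.

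**Figure D3:**
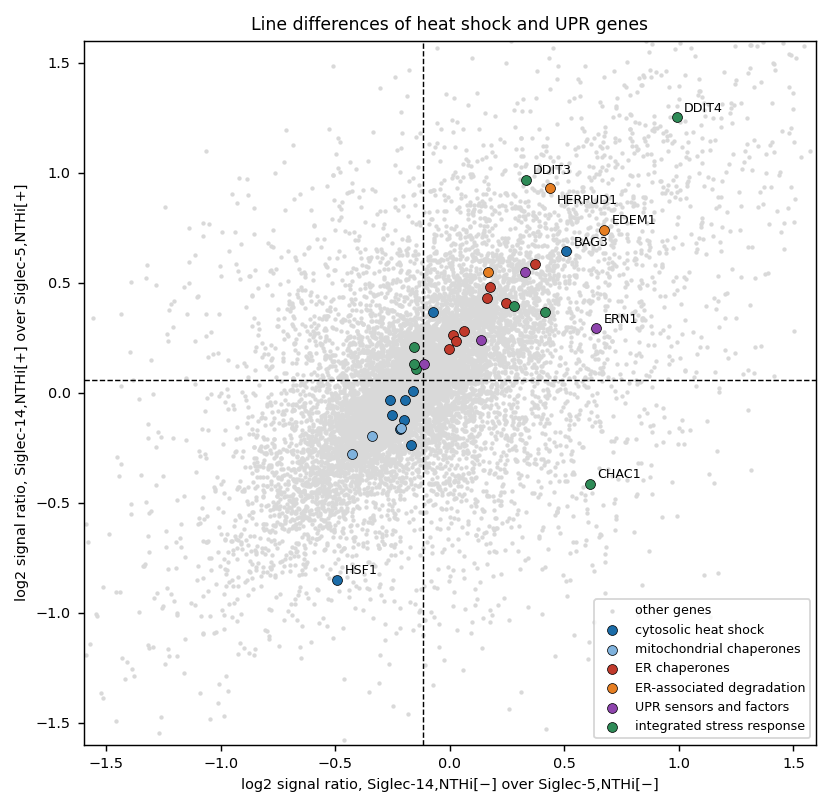
log2 ratio of Siglec-14/THP-1 to Siglec-5/THP-1 without NTHi (horizontal) and with NTHi (vertical) for the 36 genes, colored by role, over the other genes within the axes (gray), with the all-gene medians dashed (−0.12 and 0.06). Cytosolic and mitochondrial genes gather at the lower left and ER genes at the upper right of the crossing, with BAG3, DNAJB4 and CHAC1 apart from this.

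Single genes rarely reached 2-fold between the lines. Without NTHi, 0 of 36 genes were at least 2-fold higher or lower in Siglec-14/THP-1, where 3.19% of all genes were higher and 1.43% lower. With NTHi, DDIT4 was 2-fold higher and none lower, where 4.36% were higher and 0.962% lower. The fit by limma, which joins both conditions, passed 6 genes as higher in Siglec-14/THP-1, namely DDIT4, EDEM1, HERPUD1, DDIT3, BAG3 and DNAJC3, against 6.24% of all genes. It passed 1 as lower, HSF1, against 4.95%. After scaling the arrays to a common median, which lowers the all-gene median of the NTHi[+] comparison from 0.06 to −0.05, the fit passed 10 as higher and 7 as lower, where 7.41% and 15.9% of all genes passed. The 7 lower, which were near the general rate, were HSF1, HSPA9, HSPD1, HSPE1, DNAJA1, DNAJB1 and HSPH1. With quantile normalization it passed 17 and 4, where 10.9% and 11.1% of all genes passed, so the 4 lower were at the general rate. Without the intensity trend it passed 0 and 0 (2 and 1 at an unadjusted p under 0.05, where 1050 and 609 of 13935 genes were).

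**Figure D4:**
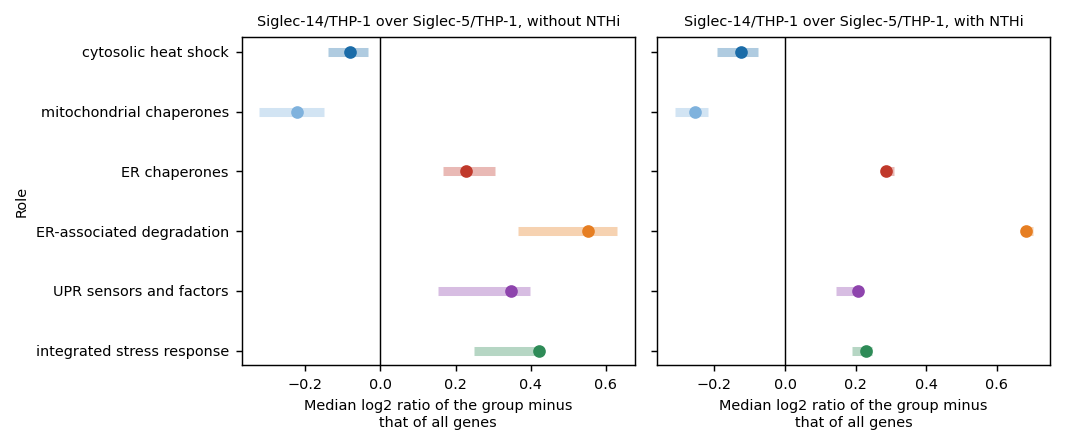
Median log2 ratio of Siglec-14/THP-1 to Siglec-5/THP-1 of each role group minus that of all genes, without NTHi (left) and with NTHi (right), as deposited (points) and over 10 settings of scaling, floor and probe set choice (bars from lowest to highest). Cytosolic and mitochondrial groups lie below 0 and the 4 others above 0 in every setting.

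The cytosolic group holds the chaperones of the HSF1 program. HSP90AA1 and HSP90AB1, the inducible and constitutive HSP90, lay close together on the 4 arrays. In the order Siglec-14,NTHi[−], Siglec-14,NTHi[+], Siglec-5,NTHi[−] and Siglec-5,NTHi[+], the signals of HSP90AA1 were 10344, 11591, 11562 and 11529, and the lowest was that of unstimulated Siglec-14/THP-1. HSP90AB1 gave 7314, 8422, 8382 and 8629.8, with the lowest signal on the same array. HSPA4 and HSPH1, nucleotide exchange partners of HSP70, HSPB1, a small heat shock protein, and the J-domain proteins DNAJA1 and DNAJB1 had log2 line ratios of −0.26 to −0.17 without NTHi and −0.24 to −0.04 with it. All 5 were below 0 in both conditions. Of 7861 bright genes, 5774 were below 0 without NTHi and 3478 with NTHi. Their NTHi ratios ran from −0.03 to 0.14 in Siglec-14/THP-1 and from −0.11 to 0.03 in Siglec-5/THP-1. DNAJB4, a dimmer J-domain protein, gave 98.0, 115, 103 and 88.8, so that its sign differed between the conditions (log2 −0.07 and 0.37). Another DNAJB4 probe set of similar brightness was higher in Siglec-14/THP-1 in both conditions (log2 0.34 and 0.65), so this sign change depends on the probe set.

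HSPA1A and HSPA1B, the stress-inducible HSP70 pair, share their probe sets. The brightest, listed for both, gave 510.1, 498, 784 and 693, both Siglec-14/THP-1 arrays being lower than both Siglec-5/THP-1 arrays. It was 1.54-fold lower in Siglec-14/THP-1 without NTHi and 1.39-fold lower with NTHi, and differed little with NTHi within a line (log2 −0.03 and −0.18). A probe set shared further with HSPA1L gave 222, 231, 378 and 317, in the same order of the lines, and the remaining one was below the floor on all arrays. HSPA8, the constitutive HSP70, was seen only on 4 probe sets that also list small nucleolar RNAs of its introns. Their log2 line ratios were −0.35 to −0.20 without NTHi and −0.11 to −0.08 with NTHi, and their NTHi ratios 0.11 to 0.22 and −0.08 to 0.04. None of these values can be given to 1 gene.

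HSF1, the transcription factor of the program, gave 59.9, 53.2, 84.2 and 95.9. Both Siglec-14/THP-1 arrays were below both Siglec-5/THP-1 arrays, by 1.41-fold without and 1.80-fold with NTHi. The fit by limma gave a log2 difference of −0.67 ± 0.22 (SE) between the lines (adjusted p = 0.036). A second, dimmer HSF1 probe set gave 21.1, 22.8, 13.95 and 16.8, in the opposite order of the lines. HSF1 passed in only 3 of the 7 fits in which it was measured, the main fit among these 3. Its adjusted p-values in the alternative fits by limma were 0.0032 to 0.42. BAG3, the co-chaperone that links HSP70 to autophagy and is itself an HSF1 target, went the other way and gave 289, 280.5, 203 and 179.7. It was 1.42-fold and 1.56-fold higher in Siglec-14/THP-1 (limma, log2 0.58 ± 0.17 (SE), adjusted p = 0.0095). It was also the only gene of the 36 that was lower with NTHi in both lines (log2 −0.04 and −0.18).

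Most promoters of the cytosolic group hold the HSF1 motif. Promoters were taken from RefSeq (GRCh38.p14) as 250 bases before and 50 after each annotated start, and were found for 38 of the 39 genes, all but HSF1. The heat shock element was searched as GAANNTTC or TTCNNGAA, which read the same on both strands and can overlap. It was present for 9 of 12 cytosolic genes and 2 of 3 mitochondrial chaperones, for DDIT4 and ASNS, and for none of the 8 ER chaperones, 3 degradation genes and 4 sensors and factors. Of 27305 genes with a promoter, 16.2% had one. A match is a run of letters and does not show that HSF1 was bound. The window of HSP90AA1 (chr14:102086995-102087294, minus strand) is shown because its 3 matches stand close together upstream of the start, the outermost from base −88 and the innermost up to base −61. The second of 2 windows of HSPD1 (chr2:197499791-197500090, minus strand) is shown because 3 overlapping matches follow each other from base −245 to base −228. Capitals mark the matches.
HSP90AA1: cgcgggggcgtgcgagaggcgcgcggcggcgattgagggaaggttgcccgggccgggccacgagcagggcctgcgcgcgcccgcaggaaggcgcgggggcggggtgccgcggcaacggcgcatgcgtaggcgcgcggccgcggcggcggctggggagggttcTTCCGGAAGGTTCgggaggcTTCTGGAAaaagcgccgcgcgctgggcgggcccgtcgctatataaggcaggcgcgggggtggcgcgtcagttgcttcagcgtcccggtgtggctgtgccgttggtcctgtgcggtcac
HSPD1: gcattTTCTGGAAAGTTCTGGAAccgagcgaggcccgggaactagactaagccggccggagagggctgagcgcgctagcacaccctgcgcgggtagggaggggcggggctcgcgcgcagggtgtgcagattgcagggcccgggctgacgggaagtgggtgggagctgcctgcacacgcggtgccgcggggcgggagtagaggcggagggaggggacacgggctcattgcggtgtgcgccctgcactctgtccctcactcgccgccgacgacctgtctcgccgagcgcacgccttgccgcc

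The mitochondrial chaperones were lower in Siglec-14/THP-1 throughout. HSPD1 (HSP60), which forms the folding chamber of the matrix, gave 9430.2, 10891, 10951 and 12178, with NTHi-free Siglec-14/THP-1 lowest. Its lid, HSPE1 (HSP10), gave 4731, 4941, 6370 and 5995, so that both arrays of Siglec-14/THP-1 were below both arrays of Siglec-5/THP-1. HSPA9, the matrix HSP70 that pulls in imported proteins, gave 3642, 3972, 4607 and 4555, again with no overlap between the lines. The share of all genes without such overlap was not counted, for these genes or for others described here. Of bright genes, 43.6% were below the all-gene median in both conditions. The log2 line ratios of the 3 genes were −0.43 to −0.22 without NTHi and −0.28 to −0.16 with NTHi, and in 10 settings none of the 3 came above the all-gene median. HSPE1 was the furthest from 0 and did not pass the fit by limma (log2 −0.35 ± 0.17 (SE), adjusted p = 0.24, unadjusted p = 0.041).

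The ER chaperones had the opposite order of the lines when read relative to all genes. As deposited, SDF2L1, PDIA4, PDIA6 and HSP90B1 were close to even between the lines without NTHi (log2 −0.01 to 0.06). HSPA5, the HSP70 of the ER and the gauge of the UPR, gave 6354, 7724, 5365 and 5829. It was 1.18-fold and 1.32-fold higher in Siglec-14/THP-1. With NTHi it was 1.22-fold higher in Siglec-14/THP-1 and 1.09-fold in Siglec-5/THP-1, and it did not pass either term of the fit. DNAJC3, a J-domain partner of HSPA5 in the lumen that is also known as a brake on PERK, gave 1615, 1868, 1248 and 1246. It was the furthest of the 8 from 0 between the lines, 1.29-fold and 1.499-fold higher in Siglec-14/THP-1, and passed (limma, log2 0.48 ± 0.15 (SE), adjusted p = 0.026). Of its 4 probe sets, all 4 gave a higher signal in Siglec-14/THP-1 in both conditions. DNAJB9, another lumenal J-domain protein, gave 631, 814, 558 and 584. The NTHi[+] array of Siglec-14/THP-1 was the highest for each of the 8 genes. Of bright genes, 72.1% were higher on this array than without NTHi, and 55.8% higher than in stimulated Siglec-5/THP-1. The share of genes highest on this array of all 4 was not counted. CRELD2 and SDF2L1, small ER stress proteins, PDIA4 and PDIA6, disulfide isomerases, and HSP90B1 (GRP94), the HSP90 of the ER, had log2 line ratios of −0.01 to 0.16 without NTHi and 0.20 to 0.43 with NTHi. The dimmest of 4 HSP90B1 probe sets was lower in Siglec-14/THP-1 without NTHi (−0.21). Relative to all genes, the median of the 8 was 0.17 to 0.30 higher without and 0.28 to 0.31 higher with NTHi over 10 settings, and all 8 stood above the all-gene median in each of these settings.

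The ER stress response element (ERSE), bound by ATF6 and XBP1 with NF-Y, was searched on both strands as CCAAT and CCACG 9 bases apart. It was found for HSPA5, HSP90B1, PDIA6, CRELD2 and XBP1, 13.2% of 38 genes, and for 0.0916% of all genes. The 5 genes had median log2 line ratios of 0.06 and 0.28, and the 10 measured genes with a heat shock element had −0.18 and −0.07. Of the 5, 4 are ER chaperones, and of the 10, 6 are cytosolic and 2 mitochondrial, so these medians overlap with those of the role groups. A part of the motifs in the line differences was not tested. The core TGACGTG, also bound by these factors, was in the window of HSP90AB1 alone among the 38 genes, and of 2.40% of all genes. The window of HSPA5 (chr9:125241294-125241593, minus strand) is shown for its ERSE from base −66 to base −48, in capitals.
HSPA5: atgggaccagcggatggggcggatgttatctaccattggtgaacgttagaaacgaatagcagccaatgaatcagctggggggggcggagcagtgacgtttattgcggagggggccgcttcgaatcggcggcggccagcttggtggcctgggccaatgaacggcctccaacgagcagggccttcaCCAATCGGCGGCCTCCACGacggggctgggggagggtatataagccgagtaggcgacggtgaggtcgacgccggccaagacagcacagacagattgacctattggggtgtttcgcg

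The ER-associated degradation genes had the highest group median between the lines, led by HERPUD1 and EDEM1. HERPUD1, an ER membrane protein that gathers the degradation complex, gave 1474, 1862, 1090.1 and 977. It was 1.35-fold higher in Siglec-14/THP-1 without NTHi and 1.91-fold higher with NTHi (limma, log2 0.68 ± 0.15 (SE), adjusted p = 0.00026). Its NTHi ratio was 1.26-fold up in Siglec-14/THP-1 and 1.12-fold down in Siglec-5/THP-1. EDEM1, which trims mannose from misfolded glycoproteins and marks them for disposal, gave 409, 502, 256 and 300.3. Both lines had a higher value with NTHi, and the lines did not overlap, with 1.59-fold and 1.67-fold more in Siglec-14/THP-1 (limma, log2 0.71 ± 0.16 (SE), adjusted p = 0.00024). SEL1L, the adaptor of the HRD1 ubiquitin ligase, gave 942, 1002 in Siglec-14/THP-1 and 839, 686 in Siglec-5/THP-1, and did not pass (limma, log2 0.36 ± 0.15 (SE), adjusted p = 0.14). Of its 3 dimmer probe sets, 1 was lower in Siglec-14/THP-1 in both conditions (log2 −0.16 and −0.11).

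The UPR sensors and factors were mostly near 0 with NTHi and mostly higher in Siglec-14/THP-1. ERN1, the IRE1 kinase and nuclease, gave 113, 108, 72.6 and 88.3. It was 1.56-fold higher in Siglec-14/THP-1 without NTHi and 1.22-fold higher with NTHi. Its other 2 probe sets, both dimmer, were lower in Siglec-14/THP-1 without NTHi (log2 −0.54 and −0.19), so the order of the lines is not the same on all probe sets. EIF2AK3 (PERK) gave 466, 498, 371 and 341, with log2 line ratios of 0.33 and 0.55, and stood just outside the threshold (limma, adjusted p = 0.055). ATF6 gave 629, 662, 572 and 561, and XBP1, whose spliced and unspliced forms these signals do not separate, gave 1424, 1608, 1540.3 and 1468. The XBP1 signals of the lines overlapped.

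The integrated stress response held the genes furthest from 0. DDIT4 (REDD1), an inhibitor of mTORC1 that is raised by several stresses, gave 1959.9, 3306, 987 and 1388. It was the only gene to pass both terms of the fit. With NTHi it was 1.69-fold higher in Siglec-14/THP-1 and 1.41-fold higher in the other line, and it was 1.99-fold and 2.38-fold higher in Siglec-14/THP-1 without and with NTHi. The limma terms were log2 0.62 ± 0.15 (SE) for NTHi (adjusted p = 0.0092) and 1.12 ± 0.15 (SE) for line (adjusted p = 5.02e-11). Neither term of DDIT4 passed without the intensity trend. The line term exceeded the NTHi term, and unstimulated Siglec-14/THP-1 gave more signal than stimulated Siglec-5/THP-1. DDIT3 (CHOP), the transcription factor tied to death under long ER stress, gave 148, 224, 117 and 115. Its stimulated Siglec-14/THP-1 array stood above the 3 others. It was 1.52-fold higher with NTHi in Siglec-14/THP-1 and 1.03-fold lower in Siglec-5/THP-1, and passed for line (limma, log2 0.65 ± 0.18 (SE), adjusted p = 0.0067) but not for NTHi (adjusted p = 0.98).

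CHAC1, an ATF4 target that degrades glutathione, had signals near the floor and gave 24.5, 29.9, 13.8 and 39.9. Its highest signal was in stimulated and its lowest in unstimulated Siglec-5/THP-1. With NTHi it was at least 2.49-fold higher against the floor in Siglec-5/THP-1, and 1.22-fold higher in Siglec-14/THP-1, and it did not pass the NTHi term (limma, log2 0.91 ± 0.40 (SE), adjusted p = 0.60). Among probe sets between the floor and the 75th percentile, the SD of the NTHi log2 ratio was 0.40 in each line, against 0.20 among brighter ones. ATF4 itself gave 3962, 4823, 4394 and 4473, a log2 NTHi ratio of 0.28 and 0.03. PPP1R15A, the phosphatase subunit that reverses eIF2α phosphorylation, gave 56.0, 70.4, 46.2 and 53.5 and was higher with NTHi in both lines (log2 0.33 and 0.21). TRIB3, a pseudokinase induced by CHOP, gave 756, 945, 844 and 819. ASNS, asparagine synthetase, gave 690.4, 704, 518 and 546, with log2 line ratios of 0.41 and 0.37 and NTHi ratios of 0.03 and 0.08. CEBPG, a partner of ATF4, gave 704, 762, 786 and 695.

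**Figure D5:**
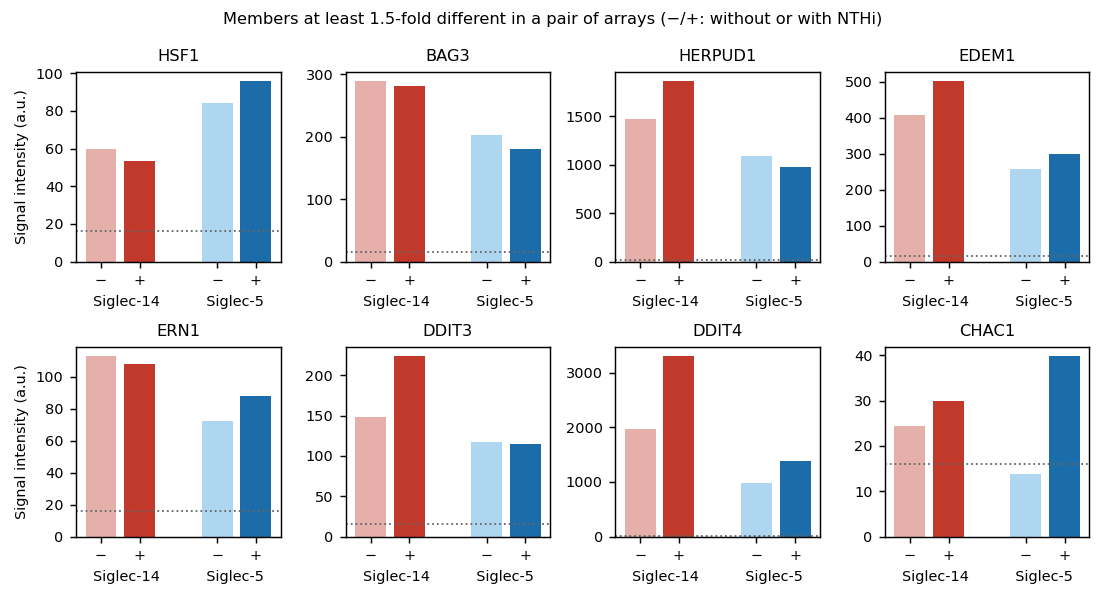
Signal intensity (linear axes from 0, arbitrary units) on the 4 arrays for the 8 genes with a ratio of at least 1.5-fold in any pair, without (−, pale) and with (+, dark) NTHi, and the floor of 16.02 as a dotted line. DDIT4, HERPUD1, EDEM1, BAG3, DDIT3 and ERN1 are higher on both Siglec-14/THP-1 arrays, HSF1 is lower on both, and CHAC1 crosses the floor in Siglec-5/THP-1 alone.

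An ATF4 element, searched on both strands as TGATGNAA, was in the windows of HERPUD1, ASNS, CHAC1 and CEBPG (10.5% of 38 genes and 4.46% of all genes). In ASNS it overlaps a heat shock element. The 4 genes had median log2 line ratios of 0.42 and 0.25. The windows of HERPUD1 (chr16:56931892-56932191, plus strand) and DDIT4 (chr10:72273674-72273973, plus strand) are shown because these genes differed most between the lines in their groups with NTHi. The capitals mark the ATF4 element of HERPUD1 on the minus strand, from base −176 to base −169, and the heat shock element of DDIT4, from base −232 to base −225.
HERPUD1: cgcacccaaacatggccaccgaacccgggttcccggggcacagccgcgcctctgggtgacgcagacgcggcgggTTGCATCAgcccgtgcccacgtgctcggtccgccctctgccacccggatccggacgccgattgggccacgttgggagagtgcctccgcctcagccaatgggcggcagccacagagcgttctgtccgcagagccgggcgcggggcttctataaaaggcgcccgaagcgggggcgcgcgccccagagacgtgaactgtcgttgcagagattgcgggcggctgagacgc
DDIT4: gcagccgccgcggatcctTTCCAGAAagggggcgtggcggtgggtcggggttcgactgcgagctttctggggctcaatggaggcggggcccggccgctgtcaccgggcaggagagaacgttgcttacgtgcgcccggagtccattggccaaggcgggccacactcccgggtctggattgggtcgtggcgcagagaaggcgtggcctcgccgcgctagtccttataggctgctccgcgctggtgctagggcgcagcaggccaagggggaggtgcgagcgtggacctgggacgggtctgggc

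The responses of the 2 lines to NTHi were set against each other gene by gene. The log2 ratio with NTHi was larger in Siglec-14/THP-1 for 31 of 36 genes (86.1%), with a median difference of 0.19. The same held for 86.1% of 7861 bright genes, with a median of 0.20, and for 76.9% of all 12289 genes, with a median of 0.19. Differences ran from −1.03 for CHAC1 to 0.64 for DDIT3, with HERPUD1 at 0.50, and the interaction has no replicate to test it.

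Genes with more than 1 probe set that no array puts below the floor allow a check of the signs. For 20 such genes, all probe sets had the same sign for 13 genes with NTHi in Siglec-14/THP-1 and for 9 in Siglec-5/THP-1. Between the lines, the sign was the same for 14 without and for 16 with NTHi. Among bright probe sets, the central 95% of log2 ratios was −0.29 to 0.49 with NTHi in Siglec-14/THP-1 and −0.47 to 0.29 in Siglec-5/THP-1, and of the genes this bright, DDIT3 in the first and DDIT4 in both lay outside. Between the lines it was −0.72 to 0.57 without and −0.58 to 0.79 with NTHi. DDIT4 and EDEM1 lay outside the former, and DDIT4, DDIT3 and HERPUD1 outside the latter.

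Related genes of the same pathways, 118 in 6 lists, were read in the same way, and 106 were in the fit by limma. None passed for NTHi (3 at an unadjusted p under 0.05), 11 passed as higher in Siglec-14/THP-1 and 5 as lower. Of all genes, 0.99% and 0.294% passed for NTHi and 6.24% and 4.95% for line, so the 5 lower were at about the general rate. Among 19 HSP90 co-chaperones and chaperonin subunits, 0 had a line ratio above 0 without NTHi, the median was −0.30, and 17 were below the all-gene median in both conditions. FKBP4, an HSP90-bound prolyl isomerase, had the lowest ratios of them (log2 −0.72 and −0.47) and was the only one to pass as lower (limma, adjusted p = 0.0024). TRAP1, the mitochondrial HSP90, was next without NTHi (−0.48) and CHORDC1 with NTHi (−0.34). FKBP5 and HSBP1 were highest (−0.04 and −0.05 without, 0.10 and 0.06 with NTHi). Of 18 further HSP70, J-domain and small heat shock proteins, DNAJB2 (log2 1.30 and 1.25) and DNAJB5 (1.23 with NTHi) passed as higher and HSPA4L (−0.66 and −0.69) as lower. HSPA6 was lowest without NTHi (−0.75), DNAJA4 was next to lowest with it (−0.66), and DNAJC1 was the second highest without it (0.28).

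Of 20 further genes of ER folding and translocation, 13 were above and 4 below the all-gene median in both conditions. KDELR3, which returns ER proteins from the Golgi, gave 138, 156, 53.7 and 48.9 and was 2.58-fold and 3.19-fold higher in Siglec-14/THP-1. SEC24D, a coat protein of ER exit, was next (log2 0.46 and 0.77). Both passed as higher, together with MANF, a secreted ER stress protein, and FKBP2, and none passed as lower. ERO1A (−0.44 and −0.34) and CALR (−0.26 and −0.18) had the lowest ratios. Of 13 further degradation genes, 7 were above the all-gene median without and 8 with NTHi, their median without NTHi was −0.10, close to that of all genes (−0.12), and none passed. UBE2J1 was lowest (−0.34 and −0.34), followed by EDEM3 without (−0.25) and UBE2G2 with NTHi (−0.22). NPLOC4 and VCP were highest without (0.15 and 0.08) and DERL2 and FAF2 highest with NTHi (0.46 and 0.39). Of 12 further sensing and regulatory genes, 6 were above the all-gene median without and 5 with NTHi, and their median without NTHi was −0.12, as for all genes. CREB3L2 (0.60 and 1.03) and CREB3 (0.66 with NTHi), ER-bound transcription factors akin to ATF6, passed as higher. WFS1 was second highest without NTHi (0.54). EIF2AK4 (GCN2), the kinase that senses amino acid shortage, passed as lower (−0.46 and −0.46), and EIF2S1 was next to it (−0.40 and −0.27).

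Among 24 further ATF4 targets, ATF3, a stress transcription factor, gave 197, 209, 38.3 and 36.6. It was 5.16-fold and 5.71-fold higher in Siglec-14/THP-1 and nearly even with NTHi (log2 0.08 and −0.06). NUPR1 was next (log2 1.48 and 1.54), and WARS1 passed as higher too. VLDLR (−0.78 without NTHi) and EIF4EBP1 (−0.55 and −0.53) passed as lower, and CTH was next to lowest with NTHi (−0.45). The targets had no common direction, as 12 of 24 were above and 8 below the all-gene median in both conditions.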

How the data were processed

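RNA of 4 cell samples was measured on Affymetrix GeneChip Human Genome U133 Plus 2.0 arrays, 1 per condition, and samples were grouped by their labels. The authors quantified the arrays with GCOS (GeneChip Operating Software, version not given in the sources used here), and the deposited values are linear signal intensities, 1 for each of 54675 probe sets. The authors' methods describe a scaling on summed signal, but the sums differ between the arrays (12735500 to 14047100), and whether these values carry that scaling is not known. A scaling error would shift all ratios of a pair of arrays together, so groups are read beside the median of all genes. No depth applies to arrays, and the single array per condition limits precision.

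Probe sets were named with the platform annotation: 41097 had 1 gene, 1801 several and 11777 none. Signals below the median of all signals (16.02) were raised to it, a ratio was formed where 1 of its signals reached it, and a ratio of 2-fold was counted. The fit by limma 3.58.1 (R 4.3.3) used 31981 probe sets above the floor on 1 array or more, with line and NTHi as additive terms and an intensity trend, and adjusted p-values (Benjamini-Hochberg) under 0.05 passed. It was tested on simulated data. The rest used Python 3.11.15 with numpy 2.4.6, pandas 2.3.3 and matplotlib 3.10.9. Alternatives were other scalings, floors, thresholds and probe set choices, and fits without the trend, with another filter or without the other term.

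The 39 genes, their role groups and the further lists were chosen with earlier results of these data known. Signals on every array were to be given for each gene at least 1.5-fold different in a pair of arrays. Other genes were to be given by range, and the further lists by counts and their 2 highest and 2 lowest ratios with both signals at or above the floor. Signals on every array of the remaining members, and the values of MANF, FKBP2 and WARS1, go beyond this and were added after their values were seen. Promoters came from RefSeq (GRCh38.p14), a later build than the array's design, and no coordinates of probe sets were used.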

Additional observations from a re-analysis of the deposited data

Results flagged for a closer look

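For 11 of the 36 genes, the log2 ratio with NTHi lay on opposite sides of 0, and of the all-gene medians, in the 2 lines. Each condition has 1 array, so the difference was not tested for any of them. The difference of the log2 ratios (Siglec-14/THP-1 minus Siglec-5/THP-1) was 0.50 for HERPUD1, 0.44 for DNAJB4, 0.38 for SEL1L, 0.29 for CEBPG, 0.22 for HSPA4, 0.22 for EIF2AK3, 0.15 for HSPE1 and 0.10 for ATF6. It was −0.36 for HSF1, −0.35 for ERN1 and −0.07 for DNAJB1, which were lower with NTHi in Siglec-14/THP-1 and higher in Siglec-5/THP-1. Their dimmer probe sets did not repeat this. Those of ERN1 had the opposite signs (log2 0.24 and −0.07, and 0.11 and −0.28). That of DNAJB1 was below 0 in both lines (−0.06 and −0.01), and that of HSF1 above 0 in both (0.11 and 0.07). Second probe sets of CEBPG and DNAJB4 kept their signs, and those of HSPA4, SEL1L and ATF6 did so only in part. The same pattern was met by 32.4% of 12289 genes and by 30.6% of the 36.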

How the results depend on the processing

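No paired analysis beyond the shared fit was possible because each group has 1 array. The line term of that fit compares the lines within each NTHi condition. Its NTHi term compares the NTHi[+] and NTHi[−] arrays within each line. The counts at 2-fold were mostly unmoved by scaling, floor or probe set choice, with these exceptions. Without NTHi, 1 gene (DDIT4) was higher in Siglec-14/THP-1 under quantile normalization and under trimmed-mean scaling. CHAC1 in Siglec-5/THP-1 was lost with the floor at the 75th percentile, with a pseudocount of 16 and at 3-fold (0 each), and DDIT4 between the stimulated lines at 3-fold (0). The mean over probe sets gave 1 lower gene between the stimulated lines, EIF2AK3, whose second probe set is below the floor on all arrays. At 1.5-fold, 2 genes were higher with NTHi in Siglec-14/THP-1 (5.08% of all genes), 4 were higher between the unstimulated lines (CHAC1, DDIT4, EDEM1, ERN1; 8.13% of all genes), and 5 were higher and 1 lower (HSF1) between the stimulated lines (11.6% and 4.91% of all genes). Scaling moved the medians over the 36 genes: with NTHi in Siglec-14/THP-1 to 0.024 (quantile), with NTHi in Siglec-5/THP-1 to 0.10 (trimmed mean), between the unstimulated lines to 0.19 (quantile) and 0.16 (trimmed mean), and between the stimulated lines to 0.13 (median scaling). The all-gene median between the unstimulated lines moved from −0.12 to 0.02 with the trimmed mean. In limma, the NTHi term passed 0 genes without the trend and with the line term left out. The line term passed 0 higher and 0 lower without the trend, 10 and 7 with median scaling, 17 and 4 with quantile normalization, and 0 lower with signals raised to the floor, with a 75th percentile filter, with no filter and with the NTHi term left out. The 6 genes higher in Siglec-14/THP-1 passed in 7 of 8 fits, the main fit among them, and failed in the fit without the trend. With NTHi, the medians of the cytosolic and mitochondrial groups in Siglec-14/THP-1 turned negative under quantile normalization (−0.03 and −0.03). The sensor median there turned to −0.0025 with the trimmed mean. In Siglec-5/THP-1 each of the 6 group medians turned sign under some setting, that of the degradation group from −0.16 to 0.23 with the mean over probe sets. The causes were not tested. Ratios of probe sets below the 75th percentile, such as those of CHAC1, HSF1 and PPP1R15A, scattered more (SD of the NTHi log2 ratio 0.40, against 0.20 above it).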

Other observations

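With NTHi, the related genes outside the 39 gave small ratios, and none of 106 passed the shared fit by limma (at an unadjusted p under 0.05, 3 were higher, DNAJB2, CDC37 and ATF5, and 0 lower). In Siglec-14/THP-1, the highest log2 ratios of the 6 lists were those of HSPA2 (0.84) and HSPB8 (0.66), of ATF5 (0.74) and SHMT2 (0.29), of ERO1B (0.47) and HYOU1 (0.44), of DERL2 (0.41) and FAF2 (0.40), of PPP1R15B (0.41) and TMBIM6 (0.33), and of CDC37 (0.38) and FKBP5 (0.27). The lowest were those of CRYAB (−0.56) and DNAJA4 (−0.24), of CTH (−0.50) and STC2 (−0.16), and of SEC24D (−0.10) and ERO1A (−0.05). Those of the remaining lists were UBE2J1 (−0.23) and DERL1 (−0.11), EIF2AK4 (−0.29) and EIF2AK1 (−0.07), and CHORDC1 (−0.08) and BAG1 (−0.06). HSPA2, HSPB8, CRYAB and DNAJA4 had dim signals in this line (17.1 to 83.4), in the range where ratios scattered more.

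In Siglec-5/THP-1, the highest were DNAJA4 (0.56) and DNAJB2 (0.54), SLC7A11 (0.30) and ATF5 (0.26), DNAJB11 (0.12) and HYOU1 (0.11), NPLOC4 (0.08) and EDEM2 (−0.03), WFS1 (0.14) and CREB3 (0.11), and CDC37 (0.22) and FKBP5 (0.13). The lowest were DNAJB12 (−0.43) and HSPA2 (−0.40), VLDLR (−0.45) and SESN2 (−0.44), SEC24D (−0.40) and SIL1 (−0.26), DERL3 (−0.29) and DERL1 (−0.28), MBTPS1 (−0.32) and EIF2AK4 (−0.29), and CHORDC1 (−0.21) and CCT6A (−0.17). HYOU1, the large ER chaperone that works with HSPA5, ATF5, an ATF4 target, CDC37, which loads kinases onto HSP90, and FKBP5 were among the highest in both lines.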
